A study of Mus musculus with 16 samples.

Results

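Dox-induced hair cell-like cells (iHCs) were compared with control embryoid bodies (EBs) at day 8 of culture, across every gene with an entry of its own. The comparison used the arrays labelled Dox day 8 iHCs (n = 3) and day 8 control EBs (n = 2), which are 5 of the 16 arrays in the series. Both groups came from 1 mouse embryonic stem cell line, iGPA-Myo7a:mVenus. This line carries transgenes for Gfi1, Pou4f3 and Atoh1 that respond to doxycycline (Dox), and a reporter in which the Myo7a promoter controls mVenus, a fluorescent protein. Both groups were grown as floating aggregates in serum. The Dox iHCs received Dox from day 4 and were sorted for mVenus on day 8, after 4 days of treatment. The control EBs carried the same transgenes, received no Dox and were harvested on day 8, unsorted as the series' design states. The arrays set beside them were Dox iHCs of day 12 (n = 3), sorted after 8 days of Dox, and unsorted, untreated control EBs of day 12 (n = 2). Treatment and sort therefore cannot be told apart in any difference given here. The labels describe the replicates as biological. They do not say that the EBs came from separate cultures, so the spread between arrays may be partly technical.

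Hair cells are the sensory receptors of the inner ear. A bundle of actin-filled stereocilia on their apical surface opens ion channels when it is deflected, and ribbon synapses at their base release glutamate. Atoh1 starts hair cell differentiation, Gfi1 represses neuronal genes in hair cells, and Pou4f3 keeps them alive, as known from mice. All of these factors also act outside the ear: Atoh1 in cerebellar granule neurons, Merkel cells and intestinal secretory cells, Pou4f3 in sensory neurons, and Gfi1 in blood. An EB is an aggregate that holds many lineages at once, among them mesoderm, endoderm, blood, vessel and neural cells. In such bulk samples fewer cells of a type and less RNA per cell cannot be told apart.

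Signals are the deposited log2 values, 1 per gene and array. A log2 difference is Dox iHCs minus control EBs, so 1 unit is a change of 2-fold, and ± beside it is limma's standard error. "Rose" and "fell" are used of genes with a Benjamini-Hochberg adjusted p under 0.05 over the 22180 genes tested (limma, the spread estimated over all 16 arrays). In all, 7675 genes were called, 34.6% of those tested. Of these, 3490 rose (15.7%) and 4185 fell (18.9%). Among the called genes 5035 differed by less than 2-fold and 2640 by 2-fold or more, of which 1180 rose and 1460 fell. At higher thresholds the rises outnumbered the falls. A change of 4-fold or more was seen in 359 rises and 335 falls, 8-fold or more in 124 rises and 67 falls, and 32-fold or more in 12 rises and 2 falls. The median log2 difference over all genes was 0.02. The 5 arrays separated the groups without overlap in 12281 genes (55.4%), with the Dox iHC arrays above in 6259 (28.2%) and below in 6022 (27.2%). Many of these were not called, 4645 in all. Of the 4-fold rises 212 had a control EB mean under the median signal of 5.18, and of the 4-fold falls 176 had a Dox iHC mean under it. RMA compresses differences at low signal, and the table has no detection calls.

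**Figure D1:**
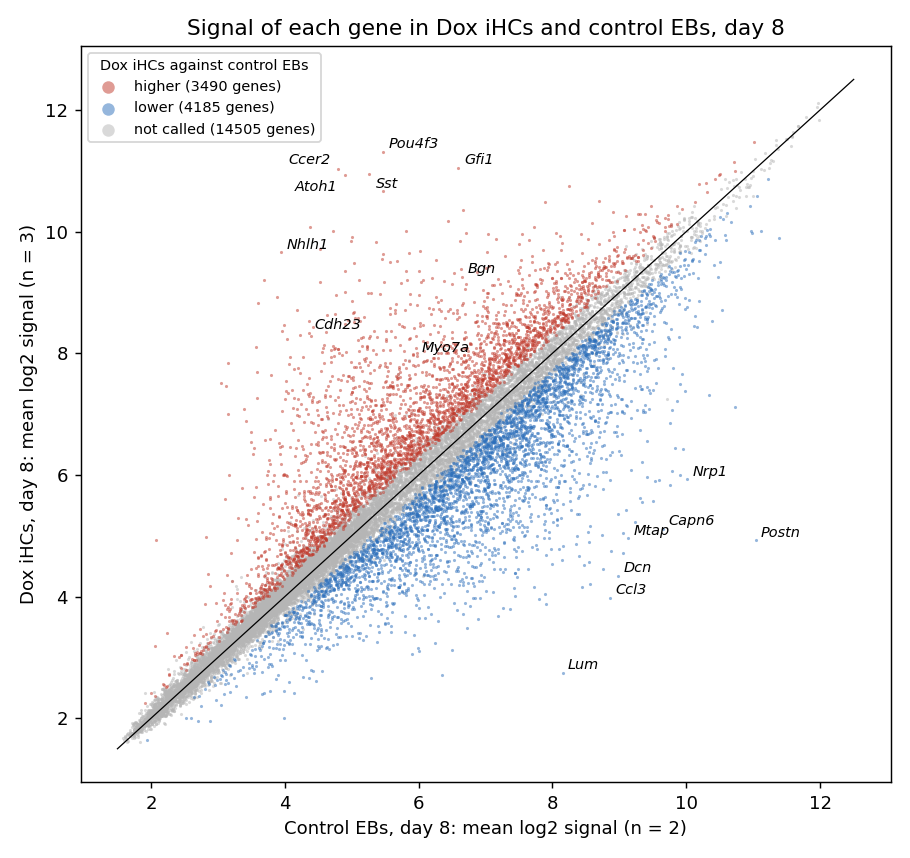
Mean log2 signal of each of the 22180 genes in Dox iHCs (vertical axis, n = 3) and in control EBs (horizontal axis, n = 2) at day 8, with 3490 genes that rose in red, 4185 that fell in blue and the others in grey. The line marks equal signal, the induced factors lie far above it, and the matrix genes Postn, Lum and Dcn lie far below it.

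The induced factors checked the labels. Atoh1 had log2 signals of 10.99, 10.88 and 10.91 in Dox iHCs, against 4.71 and 5.07 in control EBs, a log2 difference of 6.03 ± 0.14 (adjusted p = 1.1e-12). Pou4f3 had log2 signals of 11.4, 11.27 and 11.27 in Dox iHCs, against 5.13 and 5.82 in control EBs, with a log2 difference of 5.84 ± 0.19. Gfi1 had log2 signals of 11.11, 11.06 and 10.98 in Dox iHCs, against 6.72 and 6.47 in control EBs, with a log2 difference of 4.46 ± 0.11. For each factor the Dox iHC arrays lay close together, and every one of them was far above both control EB arrays. The probes may read transgene and endogenous transcript alike, so these values do not say which of the copies was active. Myo7a, the myosin whose promoter drives the sorted reporter, had log2 signals of 8.48, 7.63 and 7.76 in Dox iHCs, against 6.11 and 5.83 in control EBs, a log2 difference of 1.98 ± 0.28 (adjusted p = 4.2e-05). Its arrays did not overlap between the groups, with replicate 1 the highest of the Dox iHCs. Cells were sorted by a Myo7a reporter, and the part of the sort in this rise cannot be told apart.

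Of the 30 largest rises with a name and without overlap between the arrays, the largest was Ccer2, with log2 signals of 11.18, 10.98 and 10.9 in Dox iHCs, against 4.91 and 4.67 in control EBs and a log2 difference of 6.23 ± 0.15. The Dox iHC arrays were all above both control EB arrays and close together. Slitrk6, a transmembrane protein needed in mice for the innervation of the inner ear, had log2 signals of 10.15, 9.8 and 9.76 in Dox iHCs, against 5.29 and 4.72 in control EBs, a log2 difference of 4.9 ± 0.19. Dll3, a Notch ligand family member, had log2 signals of 9.85, 10.0 and 9.67 in Dox iHCs, against 4.84 and 5.14 in control EBs, and Rab3c, a GTPase of synaptic vesicles, 8.44, 7.77 and 7.3 in Dox iHCs, against 3.11 and 3.2 in control EBs. In both genes replicate 3 was the lowest of the Dox iHC arrays and still far above the control EBs. Further rises among the 30 were the phospholipase C gene Plch2 (log2 difference 4.18 ± 0.28), the protocadherin gene Pcdh9 (5.04 ± 0.24), the secreted phospholipase gene Pla2g2f (4.53 ± 0.25) and the arginine methyltransferase gene Prmt8 (4.2 ± 0.17). The G protein regulator gene Rgs16 (4.46 ± 0.29) and the nucleotide sugar transporter gene Slc35d3 (4.46 ± 0.21) belonged to them too.

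Atoh1 binds E-boxes, short DNA elements with the letters CANNTG. RefSeq promoter windows (GRCm38.p6, 250 bases before to 50 after a start) were searched for CAGCTG, which reads the same on both strands. They were also searched for CAGATG, on both strands, and for CACGTG, again the same on both. A site of 6 bases can hold only 1 of these motifs. CAGCTG was found in 25.8% of the 353 windows of genes that rose 4-fold or more, in 15.4% of the 285 windows of genes that fell 4-fold or more, and in 16.2% of the 20611 windows of all genes tested. For CAGATG the shares were 16.7%, 13.7% and 14.6%, and for CACGTG 5.38%, 6.67% and 8.07%. Of the 30 largest rises 27 had a window, with 32 windows in all. CAGCTG was found in 9 of these windows, from 8 genes, and CAGATG in windows of 5 genes. The windows of Plch2, Ccer2, Dll3 and Rab3c are shown, with the matches in capitals. Plch2 held 2 matches, and the others, which held 1 each, had larger log2 differences than further windows with 1.
Plch2 (chr4:155010976-155011275, minus strand): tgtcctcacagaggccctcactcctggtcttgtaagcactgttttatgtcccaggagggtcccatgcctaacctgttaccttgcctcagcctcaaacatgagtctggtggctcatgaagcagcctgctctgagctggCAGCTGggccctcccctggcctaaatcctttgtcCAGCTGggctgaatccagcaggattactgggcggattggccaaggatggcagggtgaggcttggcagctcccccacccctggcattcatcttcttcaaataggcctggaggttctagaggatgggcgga
Ccer2 (chr7:28755924-28756223, plus strand): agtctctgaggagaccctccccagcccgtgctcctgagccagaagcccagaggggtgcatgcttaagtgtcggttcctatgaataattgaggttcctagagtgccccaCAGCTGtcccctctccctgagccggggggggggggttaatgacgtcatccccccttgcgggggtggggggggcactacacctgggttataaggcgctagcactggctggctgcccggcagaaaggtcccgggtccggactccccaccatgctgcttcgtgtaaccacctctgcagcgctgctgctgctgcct
Dll3 (chr7:28301736-28302035, minus strand): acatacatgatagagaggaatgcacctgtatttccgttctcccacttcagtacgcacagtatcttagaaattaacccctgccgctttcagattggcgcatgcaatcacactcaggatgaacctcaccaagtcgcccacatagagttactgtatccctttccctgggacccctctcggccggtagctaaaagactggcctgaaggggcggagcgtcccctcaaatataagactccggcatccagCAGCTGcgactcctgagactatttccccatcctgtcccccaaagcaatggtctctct
Rab3c (chr13:110280157-110280456, minus strand): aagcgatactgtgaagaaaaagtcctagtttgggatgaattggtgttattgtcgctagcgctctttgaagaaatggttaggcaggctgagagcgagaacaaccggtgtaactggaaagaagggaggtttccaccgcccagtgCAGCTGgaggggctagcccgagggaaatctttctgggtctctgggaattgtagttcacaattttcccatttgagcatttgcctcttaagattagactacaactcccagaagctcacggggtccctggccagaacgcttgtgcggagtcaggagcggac
The first base of the match lay at -113 and -79 from the start in Plch2, at -142 in Ccer2, at -7 in Dll3 and at -108 in Rab3c. A match describes these letters only; binding was not measured.

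The genes were then read by role, through lists of 61 groups. A list is described by its counts, beside the background of 15.7% rises, 18.9% falls and a median log2 difference of 0.02 over all genes. Of the hair cell transcription and RNA-binding factors, 12 of 21 rose, 4 fell and 5 were not called, with a median log2 difference of 0.78. Barhl1, a homeobox factor that hair cells need to survive in mice, had log2 signals of 8.41, 8.24 and 8.74 in Dox iHCs, against 3.82 and 4.16 in control EBs. Lhx3, a LIM homeobox factor of hair cells, had log2 signals of 8.65, 8.25 and 8.01 in Dox iHCs, against 4.34 and 4.1 in control EBs, a log2 difference of 4.08 ± 0.20 (adjusted p = 1.1e-09). Rbm24, an RNA-binding splicing regulator of hair cells and muscle, had log2 signals of 9.86, 9.24 and 8.95 in Dox iHCs, against 5.47 and 6.55 in control EBs, a log2 difference of 3.34 ± 0.27. All Dox iHC arrays stood above both control EB arrays in these genes. Srrm4, a splicing factor that includes neural microexons and is needed in hair cells, rose by a log2 difference of 2.42 ± 0.22. Rest, the repressor of neuronal genes that Srrm4 inactivates by splicing in hair cells, fell, with log2 signals of 6.0, 6.11 and 6.24 in Dox iHCs, against 7.31 and 7.54 in control EBs and a log2 difference of -1.31 ± 0.28. Ikzf2, a factor of outer hair cells, was not called (log2 difference -0.61 ± 0.26). The blood factor gene Gfi1b, a relative of Gfi1, fell by a log2 difference of -2.1 ± 0.18.

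Genes of the mechanotransduction complex at the stereocilia tips rose in most cases. Of the measured members, 9 of 11 rose, 0 fell and 2 were not called, and the median log2 difference was 1.49. The rises include Myo7a, whose promoter drives the sorted reporter, so the part of the sort in that rise cannot be told apart. Cdh23, the upper cadherin of the tip link, had log2 signals of 8.74, 8.04 and 8.22 in Dox iHCs, against 4.28 and 4.44 in control EBs, a log2 difference of 3.98 ± 0.19 (adjusted p = 1.1e-09). Its partner at the lower end, Pcdh15, had log2 signals of 7.56, 7.95 and 7.73 in Dox iHCs, against 4.26 and 4.01 in control EBs. Tmie, a transmembrane subunit of the transduction complex, had log2 signals of 8.1, 8.04 and 7.69 in Dox iHCs, against 4.2 and 4.36 in control EBs. In these genes the groups were far apart on every array. The channel subunit genes differed from each other. Tmc2, active early in mouse hair cells, had log2 signals of 6.45, 6.15 and 5.46 in Dox iHCs, against 4.56 and 4.83 in control EBs, a log2 difference of 1.32 ± 0.32 (adjusted p = 0.0046). Tmc1, the subunit of mature hair cells, had log2 signals of 4.31, 4.15 and 4.15 in Dox iHCs, against 4.06 and 4.2 in control EBs and was not called (log2 difference 0.07 ± 0.18). The Tmc2 arrays did not overlap between the groups, with replicate 3 the lowest of the Dox iHCs, while the Tmc1 arrays did overlap. Lhfpl5, a further subunit (1.78 ± 0.33), Cib3, a calcium-binding partner of the channel (1.49 ± 0.27), and Ush1c, the scaffold harmonin (1.12 ± 0.28), rose by the log2 differences given. Myo1c was not called (-0.03 ± 0.14).

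**Figure D2:**
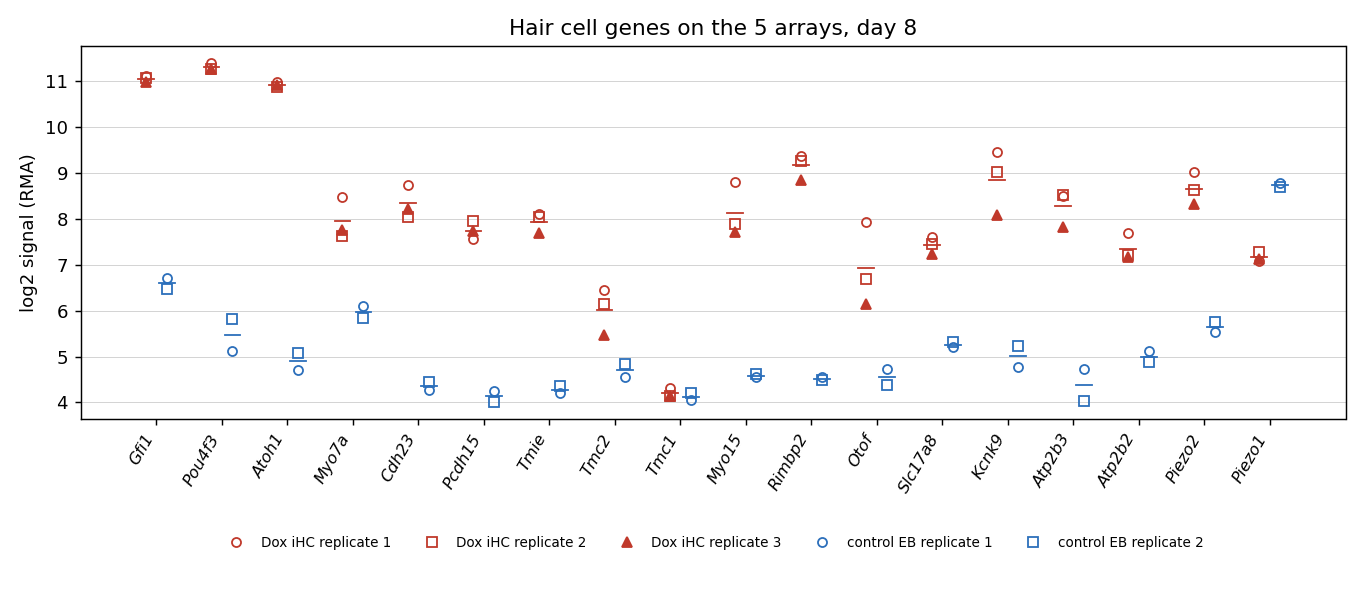
Log2 signal of hair cell genes on each array at day 8, with Dox iHC replicates in red, control EB replicates in blue and short bars for the group means. All named genes but Tmc1 separate the groups, Piezo1 is lower in Dox iHCs, and replicate 3 is the lowest Dox iHC array for Tmc2 and Otof.

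Of the stereocilia core, tip and link genes, 9 of 26 rose, 2 fell and 15 were not called (falls numbered 1 without control EB replicate 1 or 2), with a median log2 difference of 0.29. Myo15, the motor that carries elongation factors to stereocilia tips, had log2 signals of 8.8, 7.89 and 7.71 in Dox iHCs, against 4.55 and 4.61 in control EBs, a log2 difference of 3.56 ± 0.29 (adjusted p = 1.9e-07). The groups did not overlap, and replicate 1 was the highest Dox iHC array. Myo3b, a motor of stereocilia tips (2.06 ± 0.32), Ripor2, a protein of the stereocilia base (1.84 ± 0.19), Tprn, the taper protein (1.44 ± 0.17), and Gpsm2, a polarity protein that marks the tallest row (1.29 ± 0.18), rose as log2 differences. Loxhd1 rose by 1.69 ± 0.42 and Pjvk by 1.61 ± 0.54 on the log2 scale, but Loxhd1 was not called without control EB replicate 1, and Pjvk was not called without either control EB or without Dox iHC replicate 1 or 2. Among the members not called, the log2 difference was 0.09 ± 0.16 for Strc, the horizontal top connector protein, 0.19 ± 0.13 for the actin crosslinker Fscn2, 0.22 ± 0.27 for the shaft connector Ptprq and -0.04 ± 0.15 for the tip protein Eps8. The plastin gene Pls3, an actin bundler found in many cells, fell by a log2 difference of -2.15 ± 0.21. Among the unconventional myosins, 7 of 23 rose, 5 fell and 11 were not called (falls numbered 3 without control EB replicate 1 or Dox iHC replicate 2 or 3). Myo6, which anchors the stereocilia base, had log2 signals of 10.29, 9.87 and 9.64 in Dox iHCs, against 8.14 and 8.08 in control EBs, a log2 difference of 1.83 ± 0.18, with no overlap between groups. Myo1d (-1.38 ± 0.15) and Myo10 (-1.26 ± 0.20), motors found in many tissues, fell as log2 differences.

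Hair cells carry 1 true cilium, the kinocilium, while they develop. Of the ciliary genes 8 of 29 rose, 2 fell and 19 were not called (rises numbered 5 without control EB replicate 2 and falls numbered 1 without control EB replicate 1 or 2 or Dox iHC replicate 1 or 2), with a median log2 difference of 0.15. Kncn, kinocilin, had log2 signals of 7.27, 7.1 and 6.39 in Dox iHCs, against 5.46 and 5.14 in control EBs, a log2 difference of 1.62 ± 0.37 (adjusted p = 0.0029). The axonemal dynein gene Dnaic2 (1.41 ± 0.19), the ciliary regulator Rfx3 (0.78 ± 0.10) and the dynein assembly factor gene Zmynd10 (0.77 ± 0.18) rose as log2 differences. The regulators of multiciliated cells Mcidas (0.02 ± 0.12) and Gmnc (0.15 ± 0.10) were not called, and Rfx2 fell by -0.96 ± 0.12 on the log2 scale.

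Of the ribbon synapse genes 9 of 18 rose, 2 fell and 7 were not called (falls numbered 1 without control EB replicate 1 or 2), with a median log2 difference of 0.57. Rimbp2, which ties calcium channels to the release site, had log2 signals of 9.37, 9.27 and 8.85 in Dox iHCs, against 4.55 and 4.49 in control EBs, a log2 difference of 4.64 ± 0.18 (adjusted p = 1.3e-10). Otof, otoferlin, the calcium sensor of hair cell exocytosis, had log2 signals of 7.93, 6.68 and 6.15 in Dox iHCs, against 4.72 and 4.38 in control EBs, a log2 difference of 2.37 ± 0.47 (adjusted p = 0.00097). The vesicular glutamate transporter gene of hair cells, Slc17a8, had log2 signals of 7.6, 7.46 and 7.23 in Dox iHCs, against 5.2 and 5.32 in control EBs. None of these genes overlapped between the groups, and the Dox iHC arrays were furthest from each other in Otof. The calcium channel subunit gene Cacna2d2 (3.69 ± 0.18), the calcium-binding Cabp2 (3.1 ± 0.19), the scaffold gene Pclo (2.94 ± 0.17) and the active-zone gene Erc2 (2.17 ± 0.32) rose as log2 differences. The channel pore gene of inner hair cells, Cacna1d, was not called, with log2 signals of 4.97, 5.21 and 4.78 in Dox iHCs, against 4.36 and 5.44 in control EBs. Cacnb2, the beta subunit gene of that channel, fell by a log2 difference of -0.84 ± 0.12. Ctbp2 encodes the ribbon protein ribeye as well as a widespread corepressor, and is named here after its value was seen. It fell by a log2 difference of -0.65 ± 0.18, a call lost without either control EB replicate.

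Genes of synaptic vesicles and SNAREs, shared by hair cells, neurons and endocrine cells, were listed apart from the ribbon genes: 19 of 27 rose, 0 fell and 8 were not called, with a median log2 difference of 1.31. Their mean log2 signal per array was 6.7 to 7.08 in Dox iHCs, against 5.23 and 5.29 in control EBs. Syt1, the calcium sensor of fast release in neurons, had log2 signals of 9.03, 8.59 and 8.28 in Dox iHCs, against 4.67 and 4.6 in control EBs, a log2 difference of 4.0 ± 0.18. Snap25 had log2 signals of 7.73, 7.66 and 7.12 in Dox iHCs, against 4.4 and 4.27 in control EBs, a log2 difference of 3.17 ± 0.22. Syt7, a slower calcium sensor (2.72 ± 0.20), Rab3a (2.59 ± 0.17) and the priming factor gene Unc13a (2.42 ± 0.21) rose as log2 differences, while Nsf (0.05 ± 0.21), Sv2b (0.10 ± 0.12) and Cplx1 (0.15 ± 0.13) were not called. Among transmitter enzymes and carriers, 4 of 20 rose, 2 fell and 14 were not called (falls numbered 1 without control EB replicate 2). Slc18a2, the vesicular monoamine carrier, had log2 signals of 10.1, 9.99 and 9.82 in Dox iHCs, against 8.1 and 8.01 in control EBs, a log2 difference of 1.92 ± 0.12. Th, the first enzyme of catecholamine synthesis, rose by a log2 difference of 1.7 ± 0.29, while Ddc, the next enzyme, fell by a log2 difference of -1.11 ± 0.19. Slc17a7, a glutamate carrier of cortical neurons, rose by a log2 difference of 1.5 ± 0.28. The GABA enzymes Gad1 (0.20 ± 0.17) and Gad2 (0.04 ± 0.13) and the acetylcholine enzyme Chat (0.16 ± 0.11) were not called.

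Of neuropeptide and dense-core granule genes 14 of 28 rose, 2 fell and 12 were not called (falls numbered 1 without control EB replicate 1 or Dox iHC replicate 1 or 3, 0 without control EB replicate 2), with a median log2 difference of 0.39. Sst, somatostatin, had log2 signals of 10.58, 11.06 and 11.21 in Dox iHCs, against 5.47 and 5.03 in control EBs, a log2 difference of 5.7 ± 0.64 (adjusted p = 5.2e-06). All Dox iHC arrays were far above the control EBs. The granule proteins Scg3 (3.68 ± 0.27), Chgb (3.11 ± 0.27) and Chga (2.78 ± 0.15) and the prohormone convertase Pcsk1 (2.26 ± 0.20) rose as log2 differences. The peptides galanin (Gal, 2.17 ± 0.25) and cholecystokinin (Cck, 1.66 ± 0.16) rose too, while Vip (0.01 ± 0.10), Penk (-0.13 ± 0.19) and Tac1 (0.13 ± 0.11) were not called.

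Ion channel genes rose more often than they fell. Of the potassium channels, 16 of 37 rose, 5 fell and 16 were not called (falls numbered 2 without control EB replicate 1), with a median log2 difference of 0.32. Kcnk9, a leak channel, had log2 signals of 9.45, 9.02 and 8.09 in Dox iHCs, against 4.77 and 5.23 in control EBs, a log2 difference of 3.85 ± 0.42 (adjusted p = 4e-06). Kcnd2, which carries A-type current, had log2 signals of 8.44, 8.17 and 7.67 in Dox iHCs, against 4.64 and 4.51 in control EBs. In both genes the groups were far apart. Kcnma1, the large-conductance channel of mature hair cells, rose by a log2 difference of 1.98 ± 0.22, and Kcnn3, a small-conductance channel, fell by -1.94 ± 0.21. Of the sodium and calcium channels, 16 of 28 rose, 1 fell and 11 were not called, with a median log2 difference of 0.94. Cacna1b, the N-type channel of presynaptic terminals, had log2 signals of 8.18, 8.11 and 7.85 in Dox iHCs, against 5.48 and 5.67 in control EBs, a log2 difference of 2.47 ± 0.14. The T-type channel genes Cacna1h (2.08 ± 0.13) and Cacna1i (1.3 ± 0.24) rose as log2 differences, and the nociceptor channels Scn9a (0.00 ± 0.10), Scn10a (0.26 ± 0.12) and Scn11a (0.05 ± 0.10) were not called.

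Calcium leaves hair cell bundles through plasma membrane pumps and is held by mobile buffers. Of these genes 5 of 22 rose, 2 fell and 15 were not called (falls numbered 1 without Dox iHC replicate 2). Atp2b2, the pump of stereocilia, had log2 signals of 7.7, 7.21 and 7.16 in Dox iHCs, against 5.12 and 4.88 in control EBs, a log2 difference of 2.36 ± 0.17 (adjusted p = 7.3e-08). Atp2b3, a pump of the same family, had log2 signals of 8.51, 8.52 and 7.82 in Dox iHCs, against 4.74 and 4.04 in control EBs, a log2 difference of 3.9 ± 0.36. No array overlapped between groups in either pump gene. The exchanger gene Slc8a2 rose by a log2 difference of 2.35 ± 0.30 and the calcium-binding S100a1 by 1.88 ± 0.23. The buffers used as hair cell markers were not called: the log2 difference was 0.23 ± 0.20 for Pvalb, -0.02 ± 0.11 for Calb1, 0.10 ± 0.11 for Calb2 and 0.15 ± 0.15 for Ocm. Nicotinic acetylcholine receptors receive the efferent input of hair cells, through subunits encoded by Chrna9 and Chrna10. Of the subunit genes 7 of 16 rose, 1 fell and 8 were not called (falls numbered 0 without control EB replicate 1 or 2 or Dox iHC replicate 1 or 3). Chrna9 was not called, with log2 signals of 5.82, 5.17 and 4.91 in Dox iHCs, against 4.89 and 4.65 in control EBs. Chrna10 had log2 signals of 7.14, 6.41 and 5.59 in Dox iHCs, against 4.39 and 4.63 in control EBs, a log2 difference of 1.87 ± 0.59, and was not called without either control EB or without Dox iHC replicate 1. The muscle subunit genes Chrnb1 (2.87 ± 0.16) and Chrng (2.71 ± 0.30) and the ganglionic subunit genes Chrna3 (2.3 ± 0.32), Chrnb2 (2.6 ± 0.24) and Chrnb4 (2.59 ± 0.27) rose as log2 differences.

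Markers of other cells that depend on Atoh1 or Pou4f3, and of neurons, were set beside the hair cell lists. The part of such cells in the hair cell results was not tested. Several markers are shared: Isl1, Barhl1, Cntn2 and the vesicle genes belong to more than 1 of these types. Of the proneural and neuronal differentiation factors, 7 of 26 rose, 2 fell and 17 were not called (falls numbered 1 without control EB replicate 2 or Dox iHC replicate 1 or 2). Nhlh1, a helix-loop-helix factor of young neurons and developing hair cells, had log2 signals of 10.01, 9.69 and 9.28 in Dox iHCs, against 3.9 and 4.0 in control EBs, a log2 difference of 5.71 ± 0.21. Ebf1 (3.93 ± 0.14), Myt1 (3.25 ± 0.21) and Olig3 (2.58 ± 0.32) rose as log2 differences. The proneural genes Neurog1 (0.02 ± 0.13), Neurog2 (0.23 ± 0.11) and Ptf1a (-0.03 ± 0.10) were not called. Sox11, a factor of immature neurons, fell by a log2 difference of -1.27 ± 0.17. Of sensory ganglion markers 9 of 17 rose, 3 fell and 5 were not called (falls numbered 1 without control EB replicate 2), and their mean log2 signal per array was 6.24 to 6.39 in Dox iHCs, against 5.3 and 5.4 in control EBs. Pou4f1 had log2 signals of 8.69, 8.79 and 8.51 in Dox iHCs, against 5.17 and 4.87 in control EBs, a log2 difference of 3.65 ± 0.12, without overlap. Prrxl1, a sensory neuron homeobox factor (3.13 ± 0.19), and Ntrk3, the receptor for neurotrophin-3 (1.8 ± 0.28), rose as log2 differences. The nociceptor markers Trpv1 (-0.13 ± 0.09), P2rx3 (-0.01 ± 0.14) and Ret (0.04 ± 0.27) were not called.

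Of the Atoh1-lineage neuron markers of hindbrain and spinal cord, 8 of 19 rose, 3 fell and 8 were not called, with a mean log2 signal per array of 5.93 to 5.99 in Dox iHCs, against 5.01 and 5.1 in control EBs. Their median log2 difference was 0.04, near the 0.02 of all genes. Cntn2, an axonal adhesion protein of commissural neurons, had log2 signals of 10.12, 10.09 and 9.82 in Dox iHCs, against 4.88 and 4.55 in control EBs. Zic2 rose by a log2 difference of 2.48 ± 0.52. Barhl2 (0.04 ± 0.10), Lhx9 (-0.03 ± 0.11), Robo3 (-0.06 ± 0.12) and Pax6 (-0.09 ± 0.13), other markers of these lineages, were not called, and Meis1 (-3.32 ± 0.28) and Meis2 (-1.7 ± 0.14) fell as log2 differences. Merkel cells are the touch receptors of the skin. Of their markers 8 of 14 rose, 4 fell and 2 were not called, with a mean log2 signal per array of 7.56 to 7.65 in Dox iHCs, against 6.76 and 6.78 in control EBs. Piezo2, the channel of light touch, had log2 signals of 9.02, 8.64 and 8.32 in Dox iHCs, against 5.53 and 5.76 in control EBs, a log2 difference of 3.01 ± 0.25 (adjusted p = 2.9e-07). Piezo1, the other member of the family, had log2 signals of 7.09, 7.28 and 7.13 in Dox iHCs, against 8.78 and 8.69 in control EBs, a log2 difference of -1.57 ± 0.27. The Piezo genes thus separated the groups in opposite directions on all arrays. Krt20, a Merkel cell keratin, rose by a log2 difference of 1.6 ± 0.25, while Krt18, a keratin of simple epithelia and Merkel cells, fell by -1.04 ± 0.21. Of the intestinal secretory markers 3 of 18 rose, 1 fell and 14 were not called, with a mean log2 signal per array of 5.19 to 5.29 in Dox iHCs, against 4.88 and 4.91 in control EBs. The mucin gene Muc2 (0.96 ± 0.14) and the secretin gene Sct (0.96 ± 0.14) rose as log2 differences, while Spdef (0.17 ± 0.13) and Tff3 (0.20 ± 0.16) were not called.

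**Figure D3:**
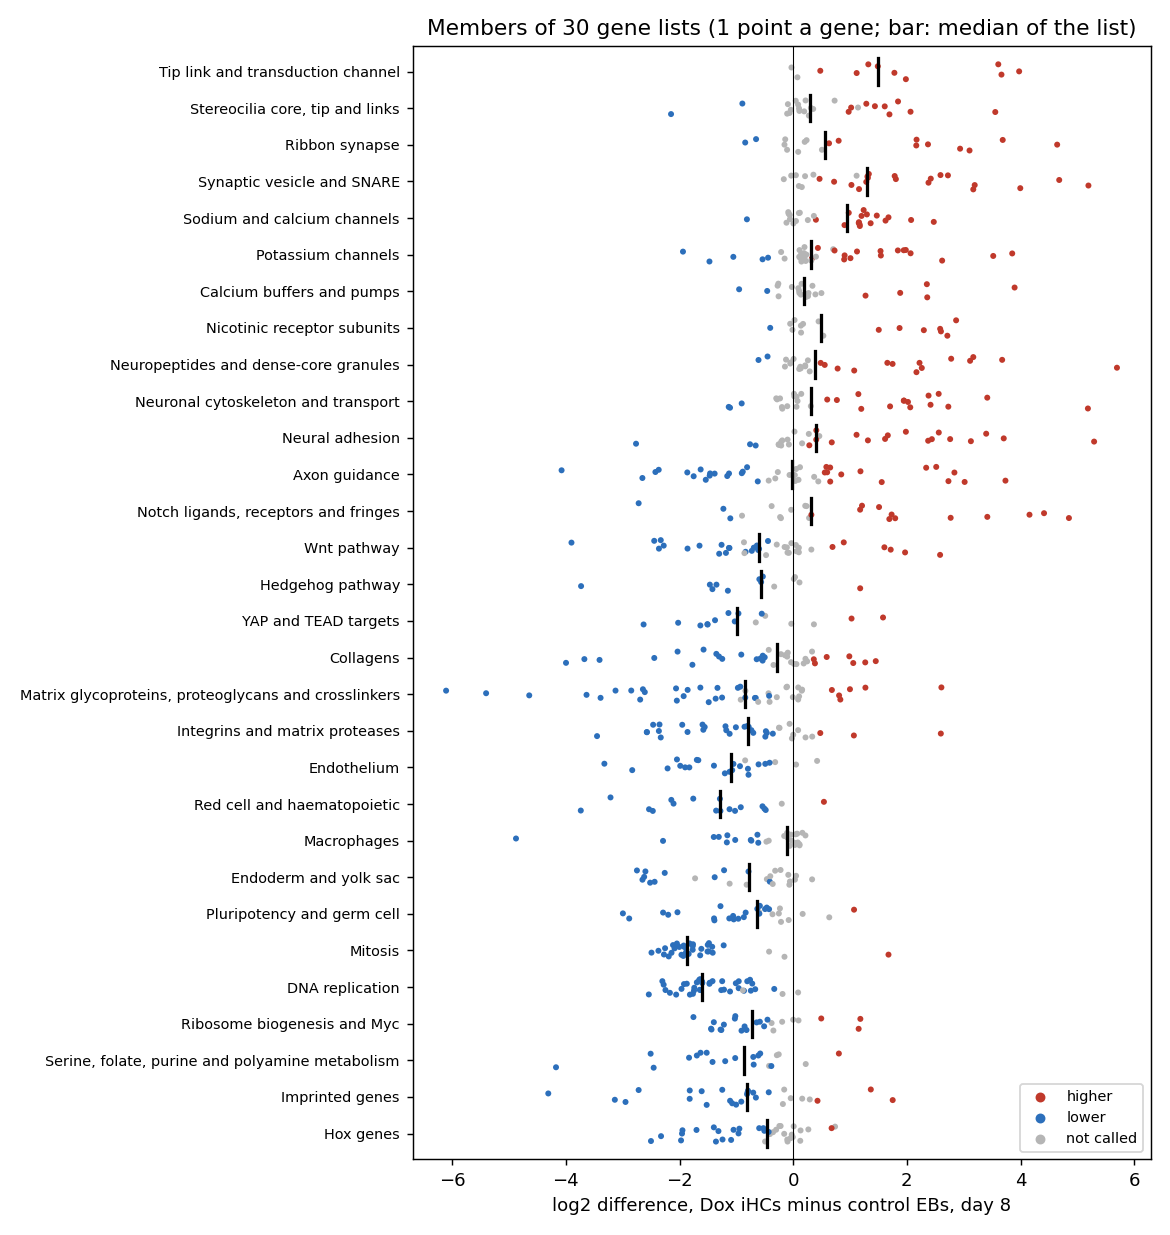
Log2 differences, Dox iHCs minus control EBs at day 8, of the members of 30 gene lists (1 point a gene, black bar the list median, red rises, blue falls, grey not called). Transduction, vesicle and channel lists lie mostly right of 0, while matrix, vessel, blood and cell-division lists lie mostly left of it, with medians down to -1.86 for mitosis.

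Neuronal structure genes were divided. Of the cytoskeleton and transport genes 15 of 31 rose, 3 fell and 13 were not called. Nefl, the light neurofilament, had log2 signals of 10.21, 10.02 and 8.92 in Dox iHCs, against 4.28 and 4.78 in control EBs, a log2 difference of 5.19 ± 0.34 (adjusted p = 2.4e-08), with every Dox iHC array above the control EBs. Map2, of dendrites, rose by a log2 difference of 3.42 ± 0.21 and Mapt, tau, by 2.42 ± 0.24. Widely used markers of young neurons were not called: the log2 difference was 0.06 ± 0.17 for Tubb3, 0.06 ± 0.18 for Dcx and 0.01 ± 0.15 for Gap43. Of the neural adhesion genes 17 of 31 rose, 3 fell and 11 were not called. Nfasc, of the axon initial segment (3.71 ± 0.15), Flrt1 (3.4 ± 0.29) and Cntn3 (3.13 ± 0.29) rose as log2 differences, while Flrt3, of the same family as Flrt1, fell by -2.77 ± 0.24. Axon guidance genes had both rises and falls: 14 of 42 rose, 17 fell and 11 were not called, with a median log2 difference of -0.02. Robo2, a receptor for Slit repellents, had log2 signals of 10.32, 10.22 and 10.0 in Dox iHCs, against 6.2 and 6.69 in control EBs, a log2 difference of 3.73 ± 0.15. Nrp1, a coreceptor for semaphorins and VEGF, had log2 signals of 5.95, 6.07 and 5.78 in Dox iHCs, against 10.08 and 9.93 in control EBs, a log2 difference of -4.08 ± 0.23. The netrin receptors Unc5a (3.02 ± 0.23) and Dcc (2.84 ± 0.58) and the ligand Slit1 (2.73 ± 0.20) rose, and the plexin Plxna4 (-2.65 ± 0.15) and the ephrin Efnb3 (-2.42 ± 0.20) fell, as log2 differences. Of the splicing and RNA-binding factors 11 of 26 rose, 6 fell and 9 were not called. The neuronal factors Elavl3 (2.29 ± 0.27), Nova1 (2.09 ± 0.17) and Rbfox3 (1.92 ± 0.18) rose as log2 differences. The epithelial splicing factor Esrp1 (-1.73 ± 0.27) and the let-7 inhibitors Lin28a (-1.39 ± 0.24) and Lin28b (-1.55 ± 0.16) fell.

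Hair cells develop beside supporting cells, which they hold back through Notch ligands. Of the Notch ligands, receptors and fringes, 12 of 23 rose, 3 fell and 8 were not called, with a median log2 difference of 0.32. Jag2, a ligand of hair cells, had log2 signals of 9.28, 9.15 and 9.01 in Dox iHCs, against 5.79 and 5.68 in control EBs, a log2 difference of 3.42 ± 0.17 (adjusted p = 1.6e-09). Dner, a neuronal ligand, had log2 signals of 8.48, 8.35 and 8.28 in Dox iHCs, against 4.09 and 3.82 in control EBs, a log2 difference of 4.41 ± 0.33. Mfng, a sugar transferase that modifies Notch, had log2 signals of 9.81, 9.55 and 9.51 in Dox iHCs, against 5.47 and 5.46 in control EBs, with the Dox iHC arrays close together. No array overlapped between the groups in these genes. Jag1, a ligand of supporting cells (-0.90 ± 0.38), and the receptor Notch1 (-0.21 ± 0.14) were not called. Dlk1, a noncanonical inhibitor, fell by a log2 difference of -2.72 ± 0.23. Among Hes, Hey and Id effectors, 7 of 14 rose, 2 fell and 5 were not called (falls numbered 1 without control EB replicate 2 or Dox iHC replicate 1 or 2). Hes6, which opposes Hes1, had log2 signals of 6.92, 7.11 and 7.2 in Dox iHCs, against 5.03 and 4.95 in control EBs, a log2 difference of 2.09 ± 0.17, and Hes5, a direct Notch target, 6.68, 7.4 and 6.66 in Dox iHCs, against 4.92 and 5.35 in control EBs, a log2 difference of 1.78 ± 0.23. Hes1 had a log2 difference of -0.82 ± 0.28, a call that was lost without control EB replicate 2 or without Dox iHC replicate 1 or 2. Hey2 fell by a log2 difference of -1.56 ± 0.21. Of prosensory and supporting cell genes 6 of 32 rose, 6 fell and 20 were not called, with a median log2 difference of 0.04. Sox2, of prosensory and neural cells, rose by a log2 difference of 1.07 ± 0.16, and Prox1, of supporting cells, by 2.28 ± 0.25. Eya1 had log2 signals of 10.88, 10.73 and 10.66 in Dox iHCs, against 8.2 and 8.3 in control EBs, a log2 difference of 2.5 ± 0.19. Fbxo2 rose by 2.34 ± 0.24, and Sox10, given below with the crest factors, rose too. Pax2 (-0.04 ± 0.17), Pax8 (0.04 ± 0.13), Gata3 (0.04 ± 0.10) and Hmx2 (-0.17 ± 0.10), other markers of the otic vesicle, were not called. Fgfr3, of pillar cells, fell by a log2 difference of -1.63 ± 0.21, and Slc1a3, a glutamate transporter of glia and supporting cells, had log2 signals of 3.75, 3.79 and 4.08 in Dox iHCs, against 8.08 and 7.73 in control EBs.

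Components of other signalling pathways fell more often than they rose. Of the Wnt pathway genes, 6 of 39 rose, 19 fell and 14 were not called (rises numbered 3 without control EB replicate 1), with a median log2 difference of -0.60. Sfrp1, a secreted Wnt antagonist, had log2 signals of 5.15, 5.84 and 7.01 in Dox iHCs, against 10.1 and 9.71 in control EBs, a log2 difference of -3.9 ± 0.38 (adjusted p = 1.4e-06). The agonist Rspo3 (-2.33 ± 0.19) and the antagonist Dkk2 (-2.36 ± 0.20) fell as log2 differences, and the receptor Fzd9 rose (2.58 ± 0.19). Of the TGF-beta and BMP genes, 4 of 35 rose, 14 fell and 17 were not called (rises numbered 2 without control EB replicate 2). Bmp4 had log2 signals of 5.95, 6.41 and 6.92 in Dox iHCs, against 9.97 and 9.91 in control EBs, a log2 difference of -3.52 ± 0.24, and the groups were far apart on all arrays. The receptor Tgfbr2 (-2.0 ± 0.17) and the ligand Tgfb2 (-1.88 ± 0.29) fell as log2 differences. Of the FGF genes, 2 of 28 rose, 9 fell and 17 were not called (rises numbered 1 without control EB replicate 1 or 2 or Dox iHC replicate 2 or 3 and falls numbered 5 without control EB replicate 2, 4 without Dox iHC replicate 1). Fgfr2 had log2 signals of 4.67, 5.16 and 5.37 in Dox iHCs, against 8.61 and 8.46 in control EBs, a log2 difference of -3.47 ± 0.25, and Fgf11, an intracellular member, rose by 2.85 ± 0.25. Of the Hedgehog genes, 1 of 13 rose, 8 fell and 4 were not called (rises numbered 0 without control EB replicate 1 or 2). Gli3, a transcription factor of the pathway, had log2 signals of 4.67, 5.04 and 5.31 in Dox iHCs, against 8.65 and 8.83 in control EBs, a log2 difference of -3.73 ± 0.16. The ligand genes Shh (0.01 ± 0.15) and Dhh (0.03 ± 0.10) were not called. Of the YAP and TEAD genes, 2 of 16 rose, 10 fell and 4 were not called. The receptor Axl fell by a log2 difference of -2.63 ± 0.22 and Yap1 itself by -1.51 ± 0.20.

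The 30 largest falls with a name and without overlap between the arrays held genes of several kinds. Postn, periostin, a matrix protein of mesenchyme, had log2 signals of 4.66, 4.8 and 5.32 in Dox iHCs, against 11.11 and 10.96 in control EBs, a log2 difference of -6.11 ± 0.39 (adjusted p = 1.6e-08). Lum, lumican, a proteoglycan of collagen fibres, had log2 signals of 2.91, 2.72 and 2.62 in Dox iHCs, against 8.31 and 7.99 in control EBs, and the chemokine Ccl3 had 4.05, 4.04 and 3.86 in Dox iHCs, against 8.91 and 8.81 in control EBs. All Dox iHC arrays were far below both control EB arrays in these genes. Falls less deep than the first 10 included the matrix gene Frem1 (log2 difference -4.13 ± 0.22), the kinase Nrk (-3.98 ± 0.26), the scavenger receptor Colec12 (-3.79 ± 0.28) and the glucocorticoid-inactivating enzyme Hsd11b2 (-3.72 ± 0.27). Upk3b (-3.64 ± 0.20) and Bnc1 (-3.83 ± 0.18), both known from mesothelium, were among them too. Of the collagen genes 7 of 36 rose, 16 fell and 13 were not called (rises numbered 4 without control EB replicate 2), with a median log2 difference of -0.28. Col1a1, of fibrillar collagen, had log2 signals of 6.17, 5.73 and 5.86 in Dox iHCs, against 9.86 and 9.33 in control EBs, a log2 difference of -3.67 ± 0.22, and Col12a1, which decorates fibres, rose by 1.45 ± 0.23. Of matrix glycoprotein, proteoglycan and crosslinker genes 6 of 45 rose, 25 fell and 14 were not called, with a median log2 difference of -0.84. The hyaluronan synthase gene Has2 (-3.64 ± 0.32) and the basement membrane gene Nid1 (-3.39 ± 0.35) fell as log2 differences. Of integrins and matrix proteases 3 of 36 rose, 25 fell and 8 were not called (rises numbered 1 without control EB replicate 2 or Dox iHC replicate 1). Itgb5, a vitronectin receptor subunit, had log2 signals of 4.21, 4.4 and 5.0 in Dox iHCs, against 7.95 and 8.03 in control EBs, a log2 difference of -3.45 ± 0.18, while Mmp24, a neuronal membrane protease, rose by 2.6 ± 0.17. Of mesenchyme and neural crest factors 4 of 27 rose, 15 fell and 8 were not called (rises numbered 2 without control EB replicate 2). Snai2 (-3.92 ± 0.33), Foxf1 (-3.92 ± 0.26) and Pdgfra (-3.67 ± 0.28) fell as log2 differences. Foxc1, a factor of mesoderm and crest, rose, with log2 signals of 9.22, 9.38 and 9.57 in Dox iHCs, against 6.46 and 6.81 in control EBs, and Sox10, of crest and the otic vesicle, rose by a log2 difference of 2.11 ± 0.16.

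Genes of the other EB lineages had more falls than rises in each list. In the endothelium list 0 of 24 rose, 20 fell and 4 were not called (rises numbered 1 without Dox iHC replicate 1), with a mean log2 signal per array of 5.47 to 5.8 in Dox iHCs, against 6.85 and 6.87 in control EBs. Emcn had log2 signals of 4.47, 4.92 and 4.95 in Dox iHCs, against 8.29 and 7.91 in control EBs, a log2 difference of -3.32 ± 0.24 (adjusted p = 7.5e-08). In the red cell and haematopoietic list 1 of 18 rose, 16 fell and 1 was not called (rises numbered 0 without control EB replicate 1 or 2 or Dox iHC replicate 2), with a mean log2 signal per array of 4.93 to 5.3 in Dox iHCs, against 6.42 and 6.76 in control EBs. The embryonic globin gene Hbb-bh1 had log2 signals of 4.88, 4.75 and 4.36 in Dox iHCs, against 8.25 and 8.54 in control EBs, a log2 difference of -3.74 ± 0.17. In the macrophage list 0 of 30 rose, 11 fell and 19 were not called, with a mean log2 signal per array of 4.32 to 4.38 in Dox iHCs, against 4.86 and 4.95 in control EBs. The median log2 difference of this list was -0.11, against 0.02 over all genes. Fcer1g, an adaptor of myeloid receptors, fell by a log2 difference of -2.29 ± 0.16, while the complement gene C1qa (-0.03 ± 0.12) and Cd68 (0.11 ± 0.32) were not called. In the cardiac and smooth muscle list 3 of 30 rose, 15 fell and 12 were not called, with a mean log2 signal per array of 5.66 to 5.84 in Dox iHCs, against 6.62 and 7.06 in control EBs. Tnnt2, cardiac troponin T, had log2 signals of 5.19, 5.45 and 5.44 in Dox iHCs, against 7.87 and 8.93 in control EBs, a log2 difference of -3.04 ± 0.27. In the endoderm and yolk sac list 0 of 25 rose, 11 fell and 14 were not called (falls numbered 7 without control EB replicate 2 or Dox iHC replicate 1), with a mean log2 signal per array of 5.04 to 5.75 in Dox iHCs, against 6.34 and 6.52 in control EBs. Afp, alpha-fetoprotein, had log2 signals of 4.63, 4.89 and 5.43 in Dox iHCs, against 7.39 and 7.45 in control EBs, a log2 difference of -2.44 ± 0.51, while Alb, albumin, had a log2 difference of 0.03 ± 0.16. The groups did not overlap for Emcn, Hbb-bh1 or Tnnt2.

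In the pluripotency and germ cell list 1 of 29 rose, 20 fell and 8 were not called, with a mean log2 signal per array of 5.09 to 5.43 in Dox iHCs, against 5.87 and 6.33 in control EBs. Nanog had log2 signals of 4.13, 4.59 and 5.72 in Dox iHCs, against 7.54 and 7.86 in control EBs, a log2 difference of -2.88 ± 0.33. Pou5f1, encoding Oct4, was not called, with log2 signals of 5.13, 5.14 and 5.27 in Dox iHCs, against 5.47 and 5.31 in control EBs. Control EB replicate 2 was the higher of the control EBs for Nanog. Of epithelial junction and keratin genes 7 of 35 rose, 10 fell and 18 were not called (rises numbered 3 without control EB replicate 1). The claudin gene Cldn3 had log2 signals of 8.92, 8.66 and 8.86 in Dox iHCs, against 5.68 and 5.65 in control EBs, a log2 difference of 3.15 ± 0.25. The cadherin Cdh3 (-2.63 ± 0.35), Grhl3, of surface epithelium (-1.89 ± 0.16), and Cdh2, N-cadherin (-1.37 ± 0.13), fell as log2 differences. E-cadherin, Cdh1, was not called (-0.83 ± 0.43).

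Most genes of the mitosis and replication lists fell, against a background of 18.9% falls. Of the mitosis genes, 1 of 34 rose, 31 fell and 2 were not called, with a median log2 difference of -1.86. Bub1, a spindle checkpoint kinase, had log2 signals of 5.0, 5.81 and 5.93 in Dox iHCs, against 7.89 and 8.26 in control EBs, a log2 difference of -2.49 ± 0.21 (adjusted p = 2.4e-07). Mki67, encoding the proliferation antigen Ki-67, had log2 signals of 6.82, 7.37 and 7.98 in Dox iHCs, against 9.42 and 9.58 in control EBs, a log2 difference of -2.11 ± 0.25. All Dox iHC arrays were below both control EB arrays, and replicate 1 was the lowest. Of the replication genes, 0 of 41 rose, 38 fell and 3 were not called, with a median log2 difference of -1.60. Prim1, the primase subunit, had log2 signals of 4.67, 5.21 and 5.34 in Dox iHCs, against 7.46 and 7.77 in control EBs, a log2 difference of -2.54 ± 0.22, and E2f8 fell by -2.3 ± 0.14. Of the cyclin-dependent kinase inhibitors and Rb family, 4 of 10 rose, 1 fell and 5 were not called (falls numbered 2 without Dox iHC replicate 2). Cdkn1c, p57, had log2 signals of 8.66, 8.92 and 8.64 in Dox iHCs, against 6.62 and 7.35 in control EBs, a log2 difference of 1.75 ± 0.26. Cdkn1b, p27, which keeps hair cells and supporting cells out of division, rose by a log2 difference of 0.62 ± 0.14. Rb1 had log2 signals of 9.75, 9.43 and 9.33 in Dox iHCs, against 7.61 and 7.79 in control EBs, a log2 difference of 1.8 ± 0.14, while its relative Rbl1 fell by -1.59 ± 0.15. Cdkn1a, p21, was not called (-0.12 ± 0.24). The linker histone gene H1f5 had log2 signals of 3.87, 4.24 and 4.01 in Dox iHCs, against 7.71 and 8.06 in control EBs, a log2 difference of -3.85 ± 0.17. Among ribosome biogenesis and Myc genes, 3 of 24 rose, 16 fell and 5 were not called. Mycn fell by a log2 difference of -1.28 ± 0.20, the Myc antagonist Mxi1 rose by 1.18 ± 0.14, and Myc was not called (-0.35 ± 0.28).

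Metabolic gene lists differed in how many of their members fell. Of the serine, folate, purine and polyamine genes, 1 of 20 rose, 15 fell and 4 were not called. Mtap, which salvages methionine from polyamine synthesis, had log2 signals of 4.14, 5.13 and 5.61 in Dox iHCs, against 9.14 and 9.12 in control EBs, a log2 difference of -4.17 ± 0.36 (adjusted p = 4.4e-07). The glycine cleavage gene Gldc (-2.51 ± 0.37) and the folate enzyme Mthfd1 (-2.46 ± 0.24) fell as log2 differences. Of the cholesterol and fatty acid genes, 2 of 21 rose, 12 fell and 7 were not called (rises numbered 0 without control EB replicate 1 or Dox iHC replicate 1, 1 without Dox iHC replicate 2). Scd1, a fatty acid desaturase, fell by a log2 difference of -2.01 ± 0.21. Of the glycolysis and lactate genes, 5 of 22 rose, 4 fell and 13 were not called (falls numbered 2 without control EB replicate 2). The neuronal enolase Eno2 (1.31 ± 0.25), the phosphofructokinase Pfkp (1.67 ± 0.20) and the muscle mutase Pgam2 (2.01 ± 0.45) rose as log2 differences, while Gapdh (-0.09 ± 0.10) and Pkm (-0.07 ± 0.20) were not called.

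The Dox iHCs were dissociated and sorted, and stress genes were listed beside that step, whose part in them was not tested. Of immediate early and heat shock genes 5 of 29 rose, 5 fell and 19 were not called (rises numbered 3 without control EB replicate 1 and falls numbered 3 without control EB replicate 2). Gadd45b had log2 signals of 8.78, 8.63 and 8.75 in Dox iHCs, against 6.1 and 6.5 in control EBs, a log2 difference of 2.42 ± 0.18. The dissociation markers Fos (-0.64 ± 0.48), Egr1 (-0.02 ± 0.28) and Jun (0.34 ± 0.20) were not called. Other immediate early genes were: Btg2 (1.53 ± 0.17), Junb (0.95 ± 0.26) and Dusp1 (0.78 ± 0.20) rose as log2 differences. The calls of Junb and Dusp1 were lost without control EB replicate 1. Klf6 (-1.63 ± 0.26) and Fosl2 (-1.07 ± 0.16) fell. Hspa1a had log2 signals of 7.06, 7.93 and 7.99 in Dox iHCs, against 5.79 and 5.58 in control EBs, a log2 difference of 1.97 ± 0.76, and was not called (adjusted p = 0.059). The groups were apart on every array, and the standard error, estimated over all groups, was wide. Of unfolded protein and integrated stress genes 6 of 25 rose, 5 fell and 14 were not called (falls numbered 3 without control EB replicate 2 or Dox iHC replicate 2). Ddit4 (1.52 ± 0.27) and Ddit3 (1.22 ± 0.16) rose as log2 differences, and the chaperone Hspa5 was not called (0.04 ± 0.12). Of p53 targets and cell death genes 3 of 25 rose, 9 fell and 13 were not called (rises numbered 1 without control EB replicate 1). The death receptor Fas (-1.85 ± 0.23) and the death effector Bcl2l11 (-1.45 ± 0.24) fell, and Sesn1 (1.3 ± 0.21) rose, as log2 differences. Of interferon-stimulated genes 2 of 26 rose, 8 fell and 16 were not called (falls numbered 4 without control EB replicate 2). Ifitm3 had log2 signals of 5.36, 5.77 and 5.52 in Dox iHCs, against 7.9 and 8.16 in control EBs, a log2 difference of -2.48 ± 0.25.

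Neurons exchange subunits of the BAF remodelling complex when they leave division. Of the BAF genes 8 of 21 rose, 4 fell and 9 were not called (falls numbered 2 without control EB replicate 2). Actl6b, the neuronal actin-like subunit, had log2 signals of 5.88, 5.69 and 5.54 in Dox iHCs, against 4.36 and 4.23 in control EBs, a log2 difference of 1.41 ± 0.17, and Bcl7a rose by 1.74 ± 0.14. Dpf1, a neuronal subunit, was not called (-0.12 ± 0.17). Phf10, a subunit of the complex in dividing progenitors, rose by a log2 difference of 0.79 ± 0.17. An exchange of subunits was not tested. Of DNA methylation and Polycomb genes 9 of 27 rose, 9 fell and 9 were not called. The methyltransferase Dnmt3b (-1.83 ± 0.35) and Uhrf1, the partner of Dnmt1 at replication, (-1.74 ± 0.16) fell, Ezh2, the Polycomb methyltransferase, fell by -1.08 ± 0.15, and the dioxygenase Tet3 rose by 0.88 ± 0.11, as log2 differences. Of imprinted genes 3 of 27 rose, 19 fell and 5 were not called, with a median log2 difference of -0.81. Asb4 had log2 signals of 3.82, 4.38 and 5.14 in Dox iHCs, against 8.94 and 8.58 in control EBs, a log2 difference of -4.31 ± 0.29, Plagl1, a growth regulator, fell by -3.14 ± 0.27, and Cdkn1c was the largest rise of the list. Of the Hox genes, which set position along the body, 1 of 36 rose, 18 fell and 17 were not called (rises numbered 0 without control EB replicate 1 or 2 or Dox iHC replicate 1). Hoxc8 had log2 signals of 4.12, 4.33 and 4.45 in Dox iHCs, against 6.66 and 6.95 in control EBs, a log2 difference of -2.5 ± 0.16, and Hoxb1, of the hindbrain, was not called (0.74 ± 0.38). Of the brain and axial position factors 6 of 34 rose, 3 fell and 25 were not called. Lhx1, a LIM homeobox factor of hindbrain, cord and kidney, had log2 signals of 9.71, 9.64 and 8.72 in Dox iHCs, against 4.63 and 5.18 in control EBs, a log2 difference of 4.45 ± 0.33. Irx2 had log2 signals of 9.74, 9.66 and 9.54 in Dox iHCs, against 5.83 and 5.87 in control EBs, and the ventral cord factor Nkx2-2 and the dorsal factor Pax3 rose by log2 differences of 2.02 ± 0.34 and 1.83 ± 0.20. Midbrain and forebrain factors En1 (-0.09 ± 0.09) and Emx1 (-0.29 ± 0.16) were not called.

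The array holds entries for microRNA genes, whose probes read precursor or host transcripts, so these values say nothing of the mature product. Of 46 listed microRNA genes with an entry, 7 rose, 6 fell and 33 were not called, and the rises numbered 1 without control EB replicate 2 and 3 without Dox iHC replicate 1. Mir182, of a cluster made in sensory hair cells, had log2 signals of 4.88, 4.13 and 4.08 in Dox iHCs, against 3.0 and 2.71 in control EBs, a log2 difference of 1.51 ± 0.41 (adjusted p = 0.0085). It was not called without control EB replicate 2. Its cluster partners Mir96 (0.56 ± 0.23) and Mir183 (0.57 ± 0.33) were not called. The brain microRNA gene Mir9-2 had log2 signals of 2.6, 3.35 and 3.64 in Dox iHCs, against 2.0 and 2.12 in control EBs, a log2 difference of 1.14 ± 0.30, and was not called without control EB replicate 1. Mir379, of the imprinted Dlk1-Dio3 region, had log2 signals of 2.56, 2.69 and 2.76 in Dox iHCs, against 5.85 and 4.73 in control EBs, a log2 difference of -2.62 ± 0.32, with all Dox iHC arrays below the control EBs. Signals here were low: Mir182 and Mir9-2 on every array, and Mir379 in Dox iHCs, lay under the median signal of 5.18. From the Mir17 cluster, known for promoting growth, Mir19a fell by a log2 difference of -1.12 ± 0.28 and Mir20a by -0.80 ± 0.17. Mir18, of the same cluster, had a log2 difference of -0.84 ± 0.19 and was not called without control EB replicate 2. Mature RefSeq sequences (GRCm38.p6) of the genes described are shown 5′ to 3′ to compare their seeds, bases 2 to 8, in capitals.
miR-182-5p: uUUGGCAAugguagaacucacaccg
miR-9-5p: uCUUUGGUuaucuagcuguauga
miR-379-5p: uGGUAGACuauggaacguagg
miR-17-5p: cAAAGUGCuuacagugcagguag
miR-20a-5p: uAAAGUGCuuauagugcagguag
miR-18a-5p: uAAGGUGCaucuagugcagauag
miR-19a-3p: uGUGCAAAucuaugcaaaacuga
Of these, miR-17-5p and miR-20a-5p share the seed AAAGUGC, miR-18a-5p has AAGGUGC, and miR-182-5p and miR-9-5p have other seeds. Of long noncoding RNA genes 4 of 18 rose, 6 fell and 8 were not called. Miat had log2 signals of 8.98, 8.95 and 8.53 in Dox iHCs, against 3.57 and 3.62 in control EBs, a log2 difference of 5.22 ± 0.19 (adjusted p = 6.6e-11). Neat1, the scaffold of nuclear paraspeckles, had log2 signals of 9.99, 9.78 and 9.87 in Dox iHCs, against 7.17 and 7.15 in control EBs, a log2 difference of 2.72 ± 0.16, and the snoRNA host Snhg3 fell by -1.06 ± 0.16.

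The Dox iHC replicates differed in how far they lay from the control EBs. Across all genes the correlation between replicates was 0.993, 0.988 and 0.992 among Dox iHCs and 0.992 among control EBs. Against the control EBs it was 0.913 and 0.909 for Dox iHC replicate 1, 0.927 and 0.926 for replicate 2, and 0.935 and 0.932 for replicate 3. Among rises of 4-fold or more, replicate 3 was the Dox iHC array nearest to the control EB mean in 262 of 359 genes (73.0%), and among falls of 4-fold or more in 244 of 335 (72.8%). Its median log2 distance from the control EB mean was 2.48 for the rises and -2.26 for the falls, against 2.88 and -2.77 for replicate 1. Over all 7675 called genes the share was lower, with replicate 3 nearest in 51.5%, replicate 2 in 31.9% and replicate 1 in 16.6%. By the mean signal of a list, replicate 3 was nearest to the control EBs in 43 of 61 lists and farthest in 11. It was nearest for mitosis, where the arrays of replicates 1, 2 and 3 averaged log2 signals of 5.98, 6.50 and 6.73 and the control EBs 7.89 and 8.24. It was farthest for the red cell and haematopoietic list, with 5.19, 5.3 and 4.93, against 6.42 and 6.76 in control EBs. The genes with the widest range over the Dox iHC arrays are given as a description, with no test. Car4, a carbonic anhydrase, had log2 signals of 5.62, 6.8 and 9.34 in Dox iHCs, against 9.48 and 9.95 in control EBs, and Gpc3, a glypican of growing tissue, 6.23, 7.14 and 8.58 in Dox iHCs, against 10.45 and 10.23 in control EBs. Asic3, an acid-sensing channel of sensory neurons, had 8.37, 7.1 and 5.28 in Dox iHCs, against 5.01 and 4.26 in control EBs, and Cdh10, a cadherin, 7.25, 6.41 and 5.04 in Dox iHCs, against 4.14 and 4.48 in control EBs. Replicate 3 was the Dox iHC array nearest to the control EBs in these 4 genes, and replicate 1 the farthest.

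**Figure D4:**
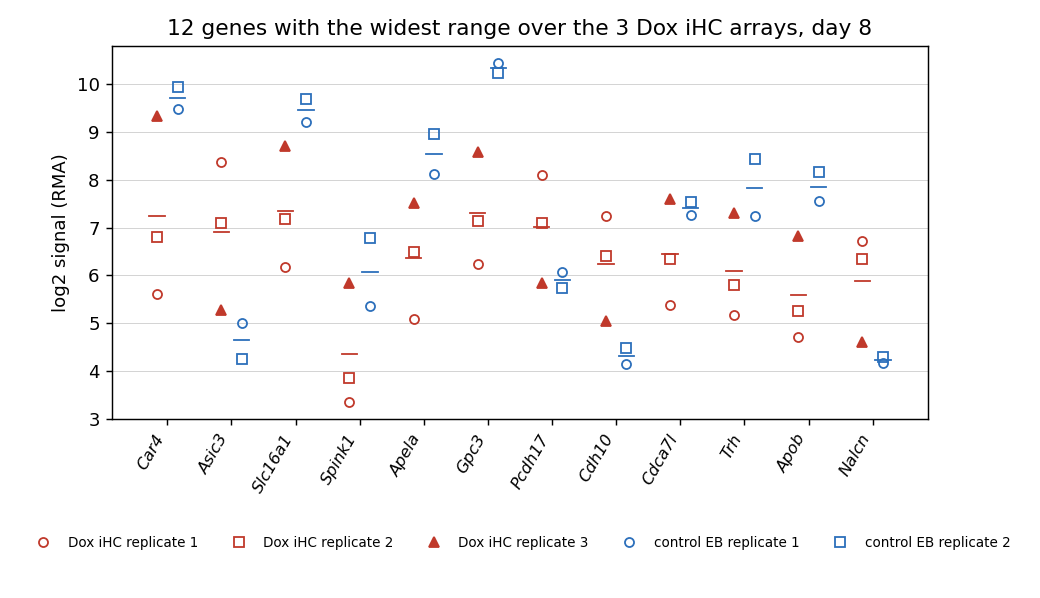
Log2 signal on each array of the 12 genes with the widest range over the Dox iHC replicates at day 8 (Dox iHCs in red, control EBs in blue, bars the group means). In each gene replicate 3 (filled triangles) is the Dox iHC array nearest to the control EB mean.

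The same difference at day 12, with arrays of its own, was set against that at day 8 by an interaction in the same limma model. In 630 genes (2.84%) the difference changed between the days, with 229 higher and 401 lower at day 12. Of these genes 449 were called at day 8 as well. Among the day 8 falls that changed, 182 were deeper at day 12, and in 108 the difference was higher at day 12. Among the day 8 rises that changed, 83 were larger at day 12, and in 76 the difference was lower at day 12. The 108 and the 76 include genes whose difference changed sign, which were not counted apart. Among them, Grap2 had a log2 difference of -0.55 at day 8 and 2.41 at day 12, and Cited4 had -2.36 and 0.55. The day 12 difference of Cited4 (0.55 ± 0.26) was not called by limma (adjusted p = 0.12). Ntrk3 had a log2 difference of 1.8 at day 8 and -1.06 at day 12. Sst had a log2 difference of 1.45 ± 0.64 at day 12 and 5.7 ± 0.64 at day 8, a change of -4.24 ± 0.91 (adjusted p = 0.02). Nefl had a log2 difference of 1.91 ± 0.34 at day 12 and 5.19 ± 0.34 at day 8, a change of -3.27 ± 0.48 (adjusted p = 0.0019). In both genes the log2 difference was positive on both days and smaller at day 12. The atrial light chain gene Myl7 had a log2 difference of -1.55 ± 0.43 at day 12 and -4.01 ± 0.43 at day 8, a change of 2.45 ± 0.60 (adjusted p = 0.042).

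**Figure D5:**
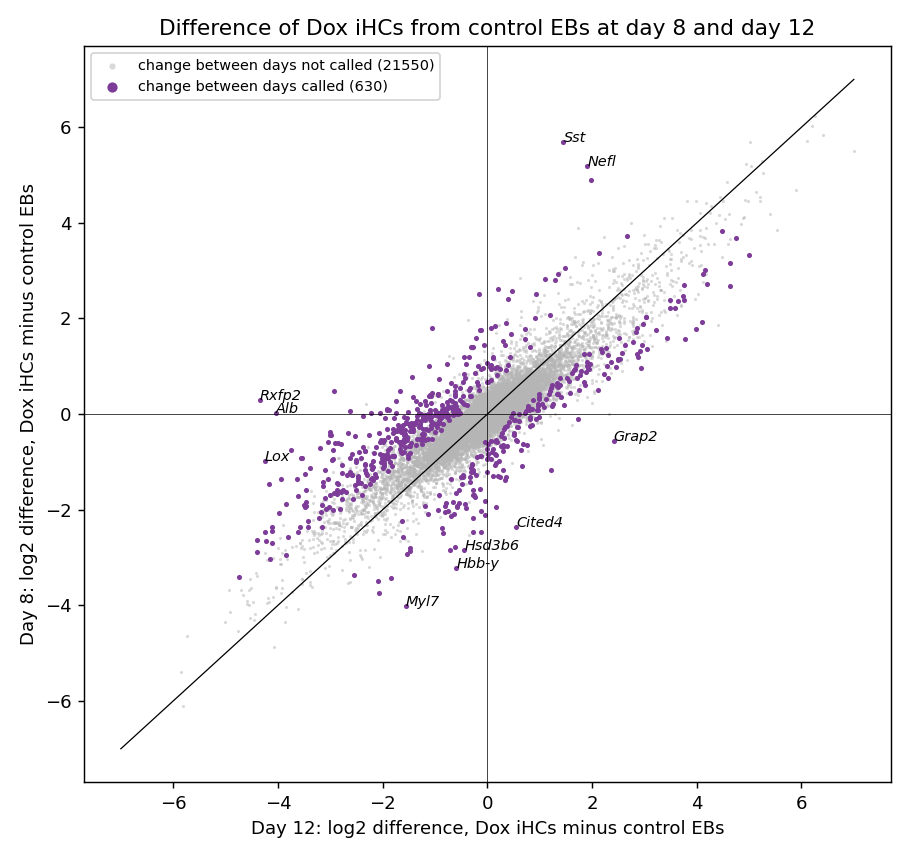
Log2 difference of each gene, Dox iHCs minus control EBs, at day 12 (horizontal axis) and at day 8 (vertical axis), with the 630 genes whose difference changed between the days in purple. The line marks equal differences, and Sst and Nefl lie above it at 5.70 and 5.19 on day 8, against 1.45 and 1.91 on day 12.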

How the data were processed

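The series holds 16 arrays (Affymetrix Mouse Gene 2.1 ST), 1 for each sample, in 6 groups. The deposited values are log2 signals that the authors made with Affymetrix Expression Console and RMA, per the submitters' processing notes. Versions are not stated there. The values ran from 1.44 to 12.25 on the 5 arrays compared, with medians from 4.67 to 4.78 and 0 missing values, and were used as deposited. Arrays give no read depth, so their number limits the precision. No source used here gives scan or hybridisation batches.

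Of 33708 entries 23521 carry 1 gene symbol, 1814 several and 8373 none, from GEO's platform annotation, and 23328 matched the RefSeq gene table (GRCm38.p6) by gene ID. For 1082 genes with several entries the entry with the highest mean over all arrays was used, leaving 22180 genes. The model, in limma 3.58.1 under R 4.3.3, had 1 mean per group over all 16 arrays and used lmFit, contrasts.fit and eBayes at defaults, with 10 residual degrees of freedom and 4.56 prior ones. The contrasts were Dox iHCs minus control EBs at day 8, and the same difference at day 12 minus that at day 8. The threshold was a p under 0.05 after Benjamini-Hochberg adjustment over all genes. The script was tested on simulated data. Tables and figures used Python 3.11.15, pandas 2.3.3, numpy 2.4.6 and matplotlib 3.10.9.

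The comparison, the 61 gene lists and the rules were chosen with earlier results of these data known. Named were the induced factors and Myo7a, the 30 largest rises and 30 largest falls with arrays that do not overlap, of each list up to 8 called members, by size of difference, and members not called as values. Also named were the 12 genes with the widest range over the Dox iHC arrays, the 5 largest changes each way between days, up to 4 promoters with most CAGCTG matches (ties by log2 difference), and called microRNA genes. Predicted genes, small RNAs and unnamed cDNAs were passed over among the largest. The text gives part of these. Members with no entry of their own were not analysed here, and sequences on some chromosomes were not shown. Alternatives were the 5 arrays alone, trend and robust eBayes, array weights, a filter on dim genes, a 2-fold threshold, equal medians, quantile normalization, the mean of a gene's entries, all entries, the replicate number as a block, and leaving out each array.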

Additional observations from a re-analysis of the deposited data

Results flagged for a closer look

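In 5 genes the Dox iHC difference from control EBs was lower at day 12 than at day 8, and these were the largest such changes by the interaction test in limma. The log2 change was -4.65 ± 0.34 for Rxfp2, a relaxin family receptor (adjusted p = 6.4e-06), -4.24 ± 0.91 for Sst (adjusted p = 0.02), -4.07 ± 0.23 for Alb (adjusted p = 5.2e-07), -3.27 ± 0.48 for Nefl (adjusted p = 0.0019) and -3.27 ± 0.36 for Lox, a collagen crosslinking enzyme (adjusted p = 0.0002). For Rxfp2 the mean log2 signal was 3.20 in Dox iHCs, against 7.55 in control EBs, at day 12, and 3.47, against 3.17, at day 8. For Alb it was 4.12 in Dox iHCs, against 8.16 in control EBs, at day 12, and 4.00, against 3.97, at day 8. For Lox it was 4.06 in Dox iHCs, against 8.31 in control EBs, at day 12, and 4.09, against 5.06, at day 8. In these genes the control EB signal was the one that differed most between the days. For Sst the mean log2 signal was 7.42 in Dox iHCs, against 5.97 in control EBs, at day 12, and 10.95, against 5.25, at day 8.

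The largest changes in the other direction were 2.97 ± 0.29 for Grap2, an adaptor of T cell signalling (adjusted p = 6.4e-05), 2.9 ± 0.37 for the coactivator Cited4 (adjusted p = 0.00074), 2.62 ± 0.28 for the embryonic globin Hbb-y (adjusted p = 0.00016), 2.45 ± 0.60 for Myl7 (adjusted p = 0.042) and 2.4 ± 0.44 for the steroid enzyme Hsd3b6 (adjusted p = 0.0079), as log2 changes. For Hbb-y the mean log2 signal was 4.69 in Dox iHCs, against 5.28 in control EBs, at day 12, and 4.69, against 7.91, at day 8. The day 8 log2 difference of Grap2 was -0.55 ± 0.20, a call that was lost under several alternatives, among them the 5 arrays alone and leaving out either control EB.

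Among the 10187 entries with no symbol or several, which enter no comparison above, 828 were higher and 750 lower in Dox iHCs at day 8, 15.5% of them. By 4-fold or more, 36 were higher and 45 lower.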

How the results depend on the processing

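The 5 arrays alone gave 7167 called genes at day 8. Asking for 2-fold besides the adjusted p left 2640 genes (1180 higher, 1460 lower). Under the other alternatives the day 8 counts stayed within 1.5 times of 7675, 3490 higher and 4185 lower. Leaving out 1 array gave 5614 to 7219 called genes, 2551 to 3269 higher and 3063 to 3950 lower, each lowest without control EB replicate 2 and highest without Dox iHC replicate 3. A lone control EB is then assumed to vary like the other groups. The count of genes whose difference changed between days, 630, moved to 1021 with array weights and ranged from 266 without control EB replicate 2 to 738 without Dox iHC replicate 1, with 414 without Dox iHC replicate 2. With the replicate number as a block it was 1430, and the day 8 counts were 8520, 3940 higher and 4580 lower. The groups share only 2 numbers, with residual correlations of 0.098 and 0.143 for equal numbers, and the labels pair no samples. The causes of these moves were not tested.

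Of 481 named genes that were called, 424 kept their call under every alternative that tested them, the 2-fold threshold aside. The other 57 lost it under at least 1, with no change of sign. Genes that the filter on dim genes removed were not tested under it. With all entries, the same entry of a named gene was read again, so its other entries were not compared there. Gata3, not called at its brightest entry, was called lower with the mean of its entries, at a log2 difference of -0.26. Counts of some lists moved by over 1.5 times, in 27 of 122 cases without control EB replicate 2 and in 5 without Dox iHC replicate 3.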

Other observations

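The share of called genes was counted by gene kind, with no test between kinds. Of 18961 protein-coding genes 3168 rose and 3962 fell (37.6% called). Of 1926 long noncoding RNA genes 200 rose and 83 fell (14.7%), so that rises outnumbered falls in that class. Of 478 microRNA genes 52 rose and 70 fell (25.5%), and of 80 small nucleolar RNA genes 9 rose and 15 fell. Of 10156 genes whose mean signal was under the median in both groups, 1102 were called.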
